A study of Mus musculus with 16 samples.

Results

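Beta-defensins and other antimicrobial peptides of epithelia were followed in the skin of mice that lacked the endoribonuclease MCPIP1 in keratinocytes, in myeloid cells or in both. The set holds 8 genes, chosen by name from the 23930 targets measured, with earlier results of these data known. They are the beta-defensin genes Defb14, Defb6, Defb3, Defb4 and Defb1, the cathelicidin gene Camp, the secretory leukocyte protease inhibitor gene Slpi and the peptidoglycan recognition protein gene Pglyrp1. Each gene was measured by 1 target, and 6 of the 8 had enough counts to be tested with 13633 targets in all. Camp and Defb4 were below that limit and are described by their counts.

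Antimicrobial peptides are small secreted proteins with which epithelia and neutrophils kill or restrain microbes, and many of them also attract or activate immune cells. Beta-defensins are cationic peptides held in shape by disulphide bonds, and their genes lie in clusters. In keratinocytes some of them are made at a steady level, whereas others are induced by interleukin-1 family cytokines, interleukin-17 and interleukin-22. Cathelicidin, Slpi and peptidoglycan recognition protein 1 are made by neutrophils as well as by epithelia. MCPIP1, also called Regnase-1 and encoded by Zc3h12a, degrades the mRNAs of inflammatory mediators.

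RNA came from whole skin of 12-week-old mice, 4 per group, labelled as separate animals, so p-values measure the spread between these 16 mice. All groups, controls included, were homozygous for floxed Zc3h12a, written Zc3h12a(loxP/loxP). Control mice had no Cre, EKO mice carried Krt14Cre(Tg/Wt), MKO mice LysMCre(Tg/Wt), and EMdKO mice both. Krt14-Cre acts in basal keratinocytes, including those of follicles and sebaceous glands, and LysM-Cre in macrophages and neutrophils, so whole skin also holds many cells without deletion. Library depth ran from 6962474 to 12086327 counts on targets. Levels are given in CPM, counts scaled by the size of each library after TMM adjustment, not by its plain total. They were read within each gene only, since each target is a separate amplicon. In whole tissue, fewer cells of a type and less RNA per cell cannot be told apart. The basal keratinocyte markers (7 of 7 with a target) were each detected in every group. They summed to 6698 to 12912 CPM in control (mean 8900), 6719 to 11110 in MKO (9343), 6734 to 13898 in EKO (11325) and 9630 to 12891 in EMdKO (11177). Zc3h12a averaged 24.7 ± 4.99 CPM (SD, n = 4) in control and 26.5 ± 7.55 in MKO, against 8.63 ± 2.10 in EKO and 5.32 ± 0.617 in EMdKO. A library that stood apart was EKO mouse 1. Its Zc3h12a level of 11.7 CPM lay below every control but above the other EKO mice (7.07 to 8.41 CPM) and the EMdKO mice (4.41 to 5.71 CPM). Its basal keratinocyte markers summed to 6734 CPM, against 12240 to 13898 in the other EKO mice. Its levels of several peptide genes lay among or below those of the mice without Krt14-Cre, so results that rest on it are given with and without it.

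In the RefSeq annotation of GRCm38.p6, Defb14, Defb4, Defb6 and Defb3 follow each other in this order in a cluster on mouse chromosome 8, with Defb5, Defb46, a pseudogene and a long non-coding RNA among them. Defb1 lies elsewhere on that chromosome. Whether reads of such related genes were split between their targets was not tested. Promoter windows from RefSeq (GRCm38.p6), each running from 250 bases before to 50 bases after the annotated start, were matched for 5 of the 8 genes (Defb6, Defb3, Slpi, Pglyrp1 and Camp). Those of Defb6 and Defb3, genes of the same cluster, are shown because they resemble each other most among the 5 windows. The Defb6 window is chr8:19225228-19225527 and the Defb3 window chr8:19293111-19293410, both on the plus strand. Capitals mark the octamer ATTTGCAT and the TATA box TATATAA.
Defb6: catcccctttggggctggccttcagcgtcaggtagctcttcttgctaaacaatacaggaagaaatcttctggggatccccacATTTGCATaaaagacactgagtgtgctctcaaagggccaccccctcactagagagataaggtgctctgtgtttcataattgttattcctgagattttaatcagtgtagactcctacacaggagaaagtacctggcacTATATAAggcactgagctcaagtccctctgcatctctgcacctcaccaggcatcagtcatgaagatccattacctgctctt
Defb3: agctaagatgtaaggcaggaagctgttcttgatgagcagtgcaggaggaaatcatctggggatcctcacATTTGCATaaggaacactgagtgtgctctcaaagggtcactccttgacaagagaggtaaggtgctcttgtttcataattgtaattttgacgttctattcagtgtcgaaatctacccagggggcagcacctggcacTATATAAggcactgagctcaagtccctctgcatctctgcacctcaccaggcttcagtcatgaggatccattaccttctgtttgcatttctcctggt

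Aligned end to end, the Defb6 and Defb3 windows were identical at 238 of 285 aligned bases (83.5%), whereas the other 9 pairs among the 5 windows gave 56.8 to 65.7%. Counted from the annotated start, the octamer begins at -168 in Defb6 and at -181 in Defb3, and the TATA box at -31 and at -46. On either strand, the octamer occurs in 1.74% and the TATA box in 3.24% of the 32851 windows of this length, and among the 5 windows both occur in these 2 only. The NF-kB consensus, a motif searched on both strands that overlaps neither of them, occurs in 8.46% of all windows and matched in Defb6, Pglyrp1 and Camp. The AP-1 motif TGANTCA (7.81% of all windows) and the STAT motif TTCNNNGAA (8.3%) have no match in the 5 windows. The octamer and TATA box were chosen after these sequences had been read, and a match describes letters only.

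Defb14 and Defb6 were higher in mice that carried Krt14-Cre. This was read from the mean effect of Krt14-Cre, the average of the EKO minus control and EMdKO minus MKO differences, which sets 8 mice with that Cre against 8 without it. Of the 6 tested genes 2 rose and 0 fell, where 0.778% of all tested genes were called higher and 0.147% lower (0.924% in all). The genes and this mean effect were chosen with earlier results of these data known, so the shares are a description only. DESeq2 and limma-voom called the same pair, with 2.32% and 4.31% of all genes called. No gene of the set had all 8 mice with Krt14-Cre above all 8 without it, as 0.0147% of all genes did. The call needs a Benjamini-Hochberg (BH) adjusted p under 0.05 in edgeR's quasi-likelihood test over all tested genes.

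Defb14 encodes a beta-defensin that is induced in stimulated keratinocytes and is the mouse counterpart of human beta-defensin 3. It measured 1.24, 4.46, 1.49 and 1.25 CPM in control mice 1 to 4 and 2.51, 3.41, 1.31 and 0.753 CPM in MKO mice 1 to 4. Its level in EKO was 0.723, 14.2, 22.3 and 18.7 CPM, against 17.7, 6.91, 7.99 and 13.5 CPM in EMdKO. All 4 EMdKO mice and 3 of 4 EKO mice lay above each of the 8 mice without Krt14-Cre, while EKO mouse 1 had the lowest level of all 16. The Krt14-Cre mean effect was 2.64 ± 0.51 on the log2 scale (SE; edgeR, BH-adjusted p = 0.024).

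Defb6, a beta-defensin gene known from mouse skeletal muscle and epithelia, had 4.46, 6.19, 6.17 and 6.50 CPM in the controls and 0.627, 6.82, 8.22 and 4.14 CPM in MKO. In EKO it stood at 4.75, 42.7, 19.1 and 21.2 CPM, and in EMdKO at 28.2, 18.5, 16.7 and 14.4 CPM. As for Defb14, 7 of the 8 mice with Krt14-Cre lay above each of the 8 without it, and EKO mouse 1 lay inside the control range. The mean effect was 1.93 ± 0.40 (edgeR, BH-adjusted p = 0.0309). The skeletal muscle markers (10 of 10 with a target) summed to 23050 to 45836 CPM in control, 26686 to 55883 in EKO, 37209 to 103208 in MKO and 21266 to 52904 in EMdKO. MKO mouse 1, with the lowest Defb6 level, held the highest sum, EKO mouse 1 the next, and EMdKO mouse 2, with 18.5 CPM of Defb6, the third. Their part in the Defb6 result was not tested.

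**Figure D1:**
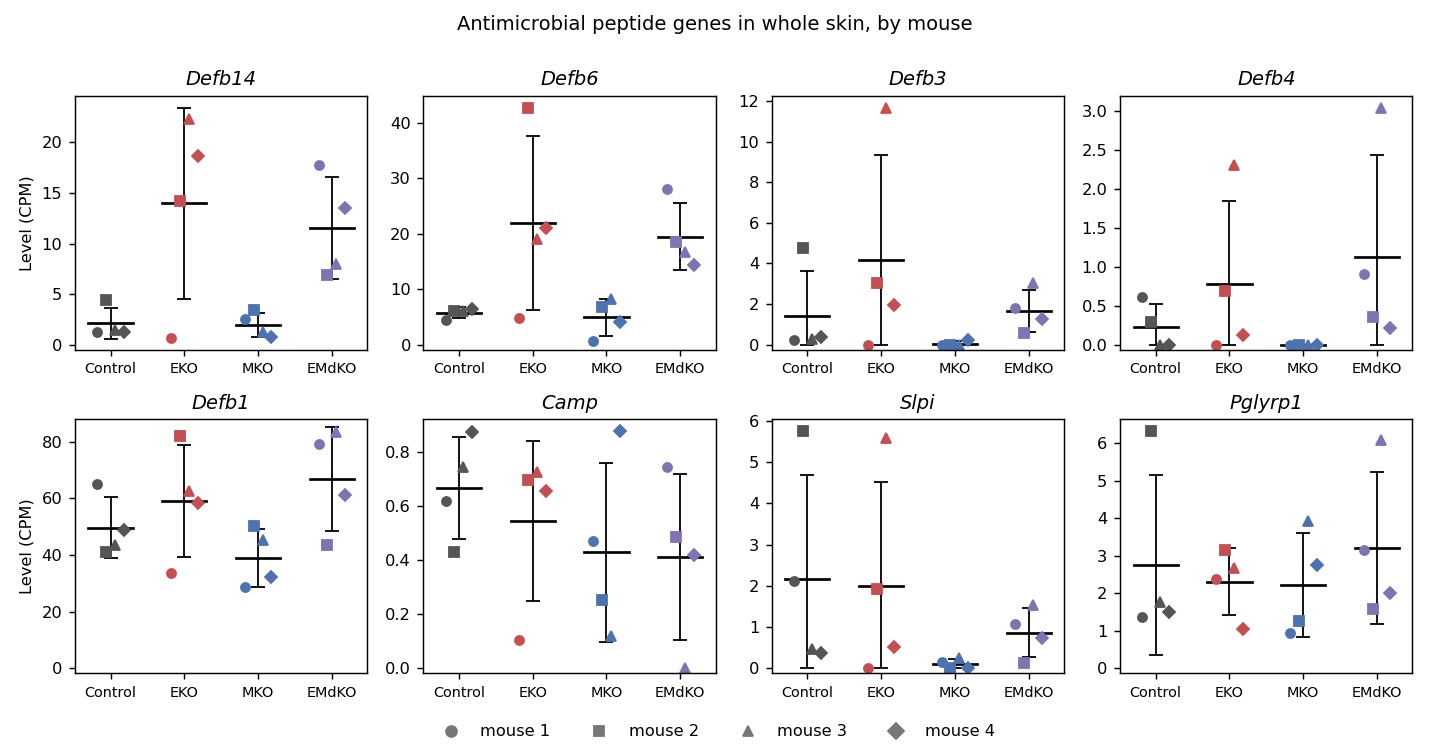
Levels of the 8 genes in CPM (vertical axes) in each mouse, by group. Points are mice, the shape gives the mouse number, and bars are the mean ± SD of 4 mice, with the lower bar cut at 0. Defb14 and Defb6 lie higher in EKO and EMdKO apart from EKO mouse 1, with 0.723 and 4.75 CPM.

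Both calls lay close to the threshold when 1 library at a time was left out. For Defb14 the call was kept in 9 of 16 such fits, with adjusted p between 0.000187 and 0.0619. It was lost without control mouse 3 (adjusted p = 0.0595), without EKO mouse 2, 3 or 4 (0.0561, 0.0619 and 0.0581) and without MKO mouse 1, 3 or 4 (0.0517, 0.0563 and 0.053), while the log2 effect stayed between 2.48 and 2.96. For Defb6 the call was kept in 5 of 16 fits, with adjusted p between 0.00185 and 0.0832 and a log2 effect of 1.66 to 2.11. It was lost without control mouse 2, 3 or 4 (0.0668, 0.0736 and 0.0538), EKO mouse 2, 3 or 4 (0.0832, 0.0658 and 0.0643), MKO mouse 2 or 4 (0.0521 and 0.0713) and EMdKO mouse 1, 2 or 3 (0.0614, 0.0528 and 0.0513). Without EKO mouse 1, Defb14, Defb6 and Defb3 rose with Krt14-Cre (edgeR, BH-adjusted p = 0.000187, 0.00185 and 0.0469), where 2.59% of all genes were called. That mouse was singled out by its low levels of such genes, so the values without it describe the other mice.

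**Figure D2:**
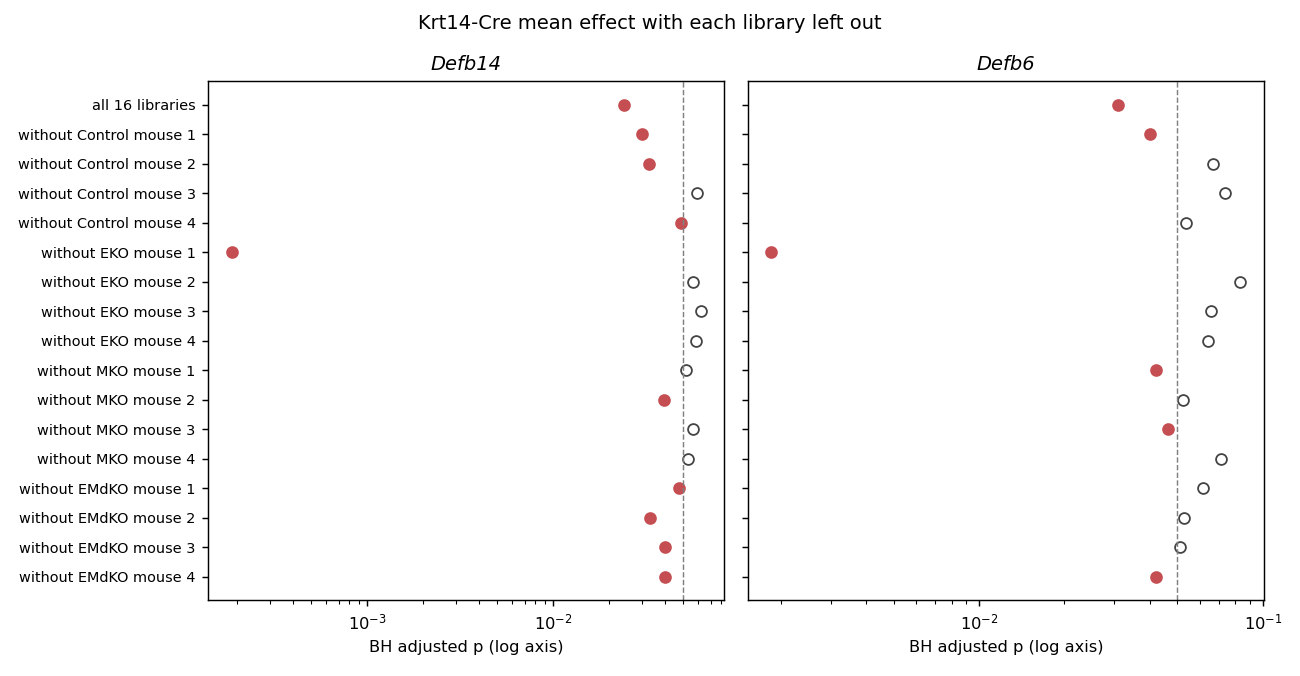
BH adjusted p (log axis) of the Krt14-Cre mean effect for Defb14 and Defb6 with all 16 libraries and with each left out. Filled points lie under the dashed line at 0.05. Leaving out EKO mouse 1 gave the smallest value for both genes, 0.000187 and 0.00185.

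Against the controls alone, keratinocyte loss and double loss gave differences of like size for both genes, none past the threshold. In EKO, Defb14 differed from control by 2.75 ± 0.72 and Defb6 by 1.91 ± 0.56 on the log2 scale (edgeR, BH-adjusted p = 0.369 and 0.462). Of the 6 tested genes 0 were called, where 0% of all genes were, and 2 had an unadjusted p under 0.05, where 6.9% of all genes had. DESeq2 called 1, Defb14 (0.433% of all genes), and limma-voom 0 (0.0293%). Every gene of the set overlapped between EKO and control, where 1.03% of all genes were higher in all EKO mice. Without EKO mouse 1, Defb14 was higher by 3.15 and Defb6 by 2.25 (edgeR, BH-adjusted p = 0.00475 and 0.035), and 0.923% of all genes were called. This was the only 1 of 16 such fits to call either gene: in the other 15 the adjusted p ran up to 0.996, and without control mouse 2 Defb14 was higher by 3.37 at an adjusted p of 0.671.

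In EMdKO against control the differences were 2.48 ± 0.72 for Defb14 and 1.74 ± 0.56 for Defb6 (edgeR, BH-adjusted p = 0.358 and 0.433). All EMdKO values of both genes lay above all control values, as 2.23% of all genes did. Here 0 of 6 genes were called, where 0.0293% of all genes were, and 2 had an unadjusted p under 0.05, where 8.16% of all genes had. DESeq2 called 1, Defb14 (0.535% of all genes), and limma-voom 0 (0.0587%). Without EKO mouse 1, and in none of the other 15 such fits, edgeR called Defb14 (adjusted p = 0.0397) and 0.291% of all genes. That mouse is in neither of the compared groups, and the Defb14 difference stayed at 2.48 without it. EKO and EMdKO share their control mice in these comparisons.

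Against MKO, which shares no mouse with the EKO and control comparison, EMdKO differed by 2.54 ± 0.72 for Defb14 and 1.95 ± 0.57 for Defb6 (edgeR, BH-adjusted p = 0.264 and 0.273). Both comparisons still came from the same fit, in which all 16 libraries share an estimate of the spread, so they are not independent. Defb14, Defb6, Defb3 and Defb4 were each higher in all EMdKO mice than in any MKO mouse, as were 3.71% of all tested genes. Of the 6 tested genes 0 were called, where 0.00734% of all genes were, and 4 had an unadjusted p under 0.05, where 7.42% of all genes had. DESeq2 called Defb14 and Defb6 (1.08% of all genes) and limma-voom 0 (0.0587%). In a fit of these 2 groups alone edgeR called Defb14 (adjusted p = 0.0302; 0.686% of all genes), as it did without EKO mouse 1 (adjusted p = 0.0207; 0.691%) but in none of the other 15 fits with 1 library left out. EKO mouse 1 is in neither of the compared groups, and the Defb14 difference stayed at 2.54 without it.

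The order of the group means was EKO, EMdKO, control and MKO for Defb14, Defb6 and Defb3. EKO and EMdKO, next to each other in that order, were not told apart. EMdKO minus EKO was -0.27 for Defb14 (95% interval -1.62 to 1.09) and -0.17 for Defb6 (-1.30 to 0.95), and no tested gene of the set was called or had an unadjusted p under 0.05 in that comparison (edgeR 0, DESeq2 0, limma-voom 0, where they called 0.0147%, 0.066% and 0.0147% of all genes). The interaction, which asks whether Krt14-Cre acted differently with and without LysM-Cre, was -0.21 ± 1.01 for Defb14 and 0.04 ± 0.78 for Defb6 on the log2 scale (edgeR, BH-adjusted p = 0.999 for both). It too had 0 calls and 0 unadjusted p under 0.05 among the 6 genes, and 0 calls with DESeq2 and limma-voom, where edgeR called 0%, DESeq2 0.022% and limma-voom 0% of all genes. These intervals leave room for differences of more than 1 on the log2 scale in either direction for Defb14.

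**Figure D3:**
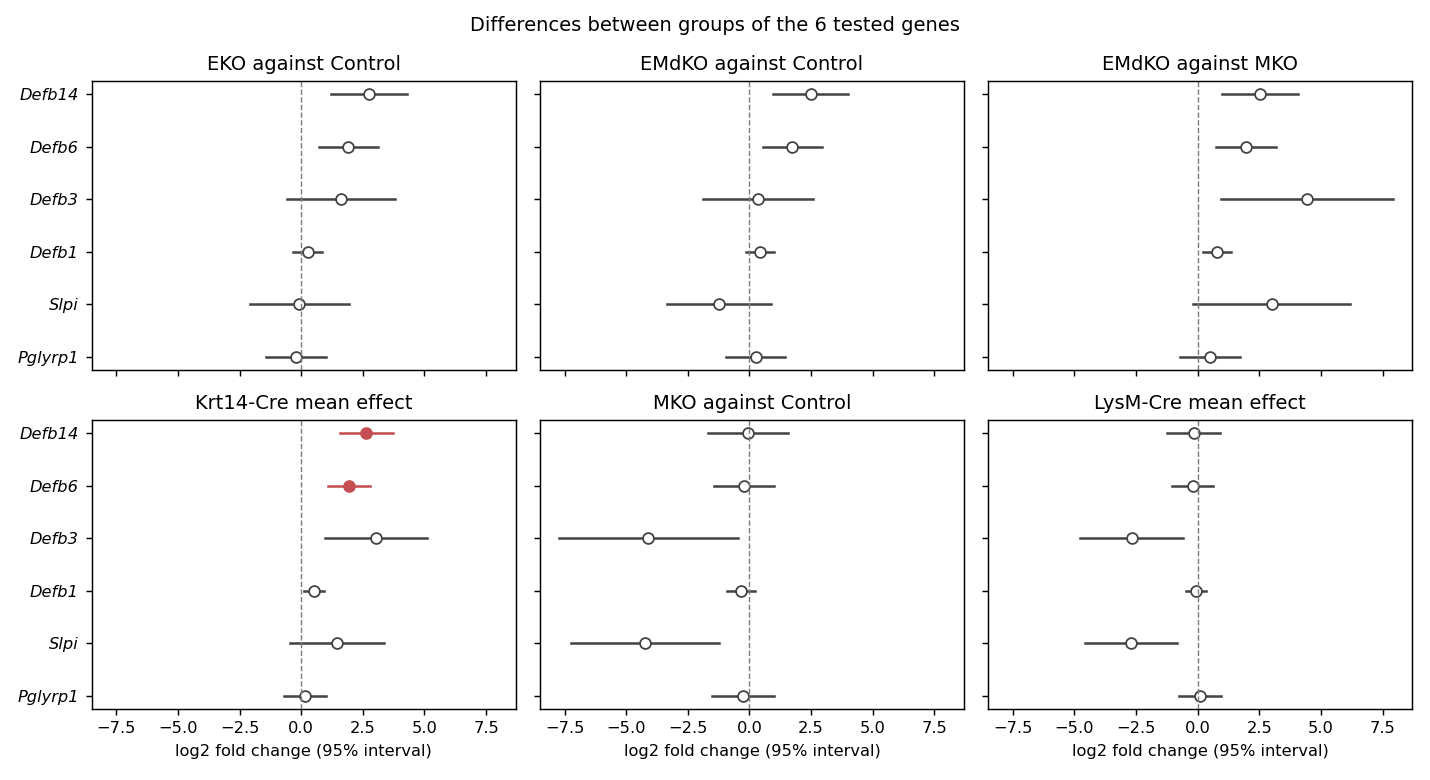
Log2 fold changes (horizontal axes) with 95% intervals of the 6 tested genes in 6 comparisons from the fit of all 16 libraries. Filled red points passed an adjusted p of 0.05, which only Defb14 (2.64) and Defb6 (1.93) did, both in the Krt14-Cre mean effect.

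Defb3, an inducible beta-defensin gene of epithelia, was high in a few mice. Its levels were 0.248, 4.75, 0.280 and 0.375 CPM in control and 0, 3.05, 11.6 and 1.97 CPM in EKO. The EMdKO mice had 1.82, 0.606, 3.05 and 1.26 CPM, and the MKO mice held 0, 0, 0 and 2 counts. EKO mouse 3 and control mouse 2 were the highest, EKO mouse 1 had 0 counts, and control and EKO overlapped. The Krt14-Cre mean effect was 3.03 ± 0.98 and the EKO difference from control 1.62 ± 1.03, neither past the threshold (edgeR, BH-adjusted p = 0.218 and 0.789).

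Defb3 was nearly undetected in MKO. The 41 control counts against 2 in MKO give a ratio of 18.6 (95% interval 4.84 to 159), and the 71 EMdKO counts give a ratio to MKO of 27 (7.2 to 227.0), intervals that cover counting error only. Control mouse 2 held 33 of the 41 control counts, and control mice 1, 3 and 4 held 2, 3 and 3, so Defb3 was near the edge of detection in them too. The fitted differences were -4.10 ± 1.71 for MKO against control, 4.44 ± 1.65 for EMdKO against MKO and -2.68 ± 0.99 for the LysM-Cre mean effect, and none passed (edgeR, BH-adjusted p = 0.451, 0.483 and 0.269). With 2 counts in MKO the size of these fitted values is rough. Without control mouse 2 the MKO difference from control was -1.99 and the EKO difference 3.73 (edgeR, BH-adjusted p = 0.757 and 0.818).

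Defb4, an inducible beta-defensin gene that is a mouse counterpart of human beta-defensin 2, had 83 counts in all. Control mice held 5, 2, 0 and 0 counts and EKO mice 0, 8, 19 and 1. EMdKO mice held 11, 3, 32 and 2 counts, and MKO mice held 0 in each library, which allows a group level of up to 0.0979 CPM (3 counts over the group). Every EMdKO mouse thus had counts where no MKO mouse did. The pooled EMdKO and EKO levels were 12.2 and 7.73 times this MKO limit. These ratios leave out the counting error of EMdKO and EKO and the spread between mice, so they are not lower bounds. EMdKO mouse 3 and EKO mouse 3 held most of the counts, and with all targets kept in the fit, however low, the Krt14-Cre mean effect of Defb4 missed the threshold (edgeR, BH-adjusted p = 0.17).

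Defb1, the beta-defensin gene that epithelia make without stimulation, was found in every mouse. It measured 64.9, 41, 43.4 and 48.9 CPM in control and 28.5, 50.2, 45.2 and 32.2 CPM in MKO. With Krt14-Cre it measured 33.8, 82.1, 62.5 and 58.2 CPM (EKO) and 79.1, 43.6, 83.5 and 61.2 CPM (EMdKO). The groups overlapped, and EKO mouse 1 was again the lowest of its group. The Krt14-Cre mean effect was 0.52 ± 0.19, with an unadjusted p under 0.05 that did not pass the adjustment (edgeR, BH-adjusted p = 0.306). The differences were 0.26 ± 0.27 in EKO, -0.34 ± 0.27 in MKO and 0.43 ± 0.27 in EMdKO against control, and 0.78 ± 0.27 in EMdKO against MKO (edgeR, BH-adjusted p = 0.846, 0.721, 0.744 and 0.409). The other 29 beta-defensin targets measured held 41 counts together over the 16 libraries, and 13 of them held 0.

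Slpi encodes an inhibitor of neutrophil elastase that also kills bacteria. Its levels were 2.11, 5.75, 0.467 and 0.375 CPM in control, 0, 1.92, 5.58 and 0.525 in EKO and 1.08, 0.121, 1.52 and 0.735 in EMdKO. The MKO mice held 1, 0, 2 and 0 counts, and all lay below every control, as 1.71% of all genes did. The closest were MKO mouse 3, at 0.238 CPM from 2 counts, and control mouse 4, at 0.375 CPM from 3 counts. This separation thus lay at the edge of detection. The 65 control counts against 3 in MKO give a ratio of 19.7 (95% interval 6.45 to 97.9, counting error only). The fitted MKO difference was -4.25 ± 1.42 and the LysM-Cre mean effect -2.70 ± 0.87, neither past the threshold (edgeR, BH-adjusted p = 0.334 and 0.213). Control mouse 2 held 40 of the 65 control counts, and without it the MKO difference was -3.13 (edgeR, BH-adjusted p = 0.505). Over all 16 fits with 1 library left out it ran from -5.16, without MKO mouse 3, to -3.13. The Krt14-Cre mean effect was 1.46 ± 0.90 (edgeR, BH-adjusted p = 0.606).

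In MKO against control and for the LysM-Cre mean effect, 0 of the 6 genes were called by edgeR, where 0.0293% and 0.044% of all genes were. In each comparison 2 of the 6, Defb3 and Slpi, had an unadjusted p under 0.05, where 9.58% and 13.1% of all genes had. For MKO against control DESeq2 and limma-voom called 0 (0.851% and 0% of all genes), and for the LysM-Cre mean effect DESeq2 called 1, Slpi (adjusted p = 0.0458; 1.9% of all genes), and limma-voom 0 (0.484%).

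Camp encodes the precursor of the cathelicidin peptide CRAMP, which neutrophil granules and stimulated keratinocytes hold. It was at the edge of detection, with 3 to 8 counts in the control libraries, 1 to 8 in EKO, 1 to 7 in MKO and 0 to 9 in EMdKO. The group means were 0.668 ± 0.189, 0.547 ± 0.297, 0.430 ± 0.332 and 0.413 ± 0.309 CPM in that order, and a difference was not detectable at this depth. Pglyrp1 encodes a bactericidal protein of neutrophil granules that binds peptidoglycan. It measured 1.36, 6.33, 1.78 and 1.5 CPM in control and 0.941, 1.26, 3.93 and 2.76 CPM in MKO. With Krt14-Cre it measured 2.37, 3.14, 2.67 and 1.05 CPM (EKO) and 3.15, 1.57, 6.09 and 2.00 CPM (EMdKO). The 4 groups overlapped, and the Krt14-Cre mean effect was 0.15 ± 0.41 (edgeR, BH-adjusted p = 0.931; 95% interval -0.71 to 1.02).

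Markers of other skin cells differed between the same mice. The suprabasal keratinocyte markers (6 of 8 with a target) summed to 6776 to 14498 CPM in control, 7635 to 11747 in MKO, 9947 to 17347 in EMdKO and 8238 to 26055 in EKO, where the lowest sum was again that of EKO mouse 1. Of these 6 markers Flg and Krt1 rose with Krt14-Cre, by 1.68 and 1.63 on the log2 scale (edgeR, BH-adjusted p = 0.035 and 0.0457), where 0.778% of all genes were called higher. Of the 7 basal keratinocyte markers edgeR called 0. DESeq2 and limma-voom each called 1, Krt14, higher with Krt14-Cre, where they called 2.32% and 4.31% of all genes. The neutrophil markers (12 of 12 with a target) summed to 5.62 to 101 CPM in control, 8.57 to 586 in EKO, 8.16 to 36.6 in MKO and 16.4 to 26.9 in EMdKO. The alarmin genes S100a8 and S100a9, which keratinocytes also express, made up most of the highest sums, 563 of 586 CPM in EKO mouse 3 and 151 of 164 CPM in EKO mouse 2. The other 10 neutrophil markers summed to 3.75 to 58.7 CPM in control, 5.39 to 22.8 in EKO, 7.40 to 35.9 in MKO and 8.09 to 12.5 in EMdKO. They were highest in control mouse 2 and MKO mouse 3, of which the first had 33 counts of Defb3 and the other 0. Ly6g was at 0 counts in all control, MKO and EMdKO libraries and Mpo in all EKO, MKO and EMdKO libraries. The sebaceous gland markers (8 of 8) summed to 1993 to 7806 CPM in control, 2668 to 6487 in MKO, 3855 to 4881 in EKO and 3677 to 9188 in EMdKO. Of these 8, 2 rose with Krt14-Cre, Elovl3 and Awat1, by 2.04 and 2.02 (edgeR, BH-adjusted p = 0.0079 and 0.0251), beside the same 0.778% of all genes. Stress keratinocyte markers (3 of 7 with a target) summed to 1211 to 2140 CPM in control and 338 to 1079 in MKO, against 877 to 3071 in EKO and 1283 to 1549 in EMdKO. In MKO against control their median log2 difference was -2.97, with 3 of 3 at an unadjusted p under 0.05. Hair shaft and inner root sheath markers (14 of 15 with a target) summed to 33.7 to 38452 CPM in control, 76.2 to 7280 in EKO, 18.3 to 622 in MKO and 26.9 to 8180 in EMdKO. Their median was -6.30 in MKO against control and -3.66 for the LysM-Cre mean effect, with 13 and 12 of 14 at an unadjusted p under 0.05, where 9.58% and 13.1% of all genes were. None of these stress and hair markers was called by edgeR or limma-voom in either comparison. DESeq2 called Foxn1, Krt28 and Krt33a lower in MKO (0.851% of all genes called) and Krt16, Sprr1b and Krt28 lower with LysM-Cre (1.9%). These lists were low in the same group as Slpi and Defb3. The part of these cell types in the levels of the peptide genes was not tested.

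**Figure D4:**
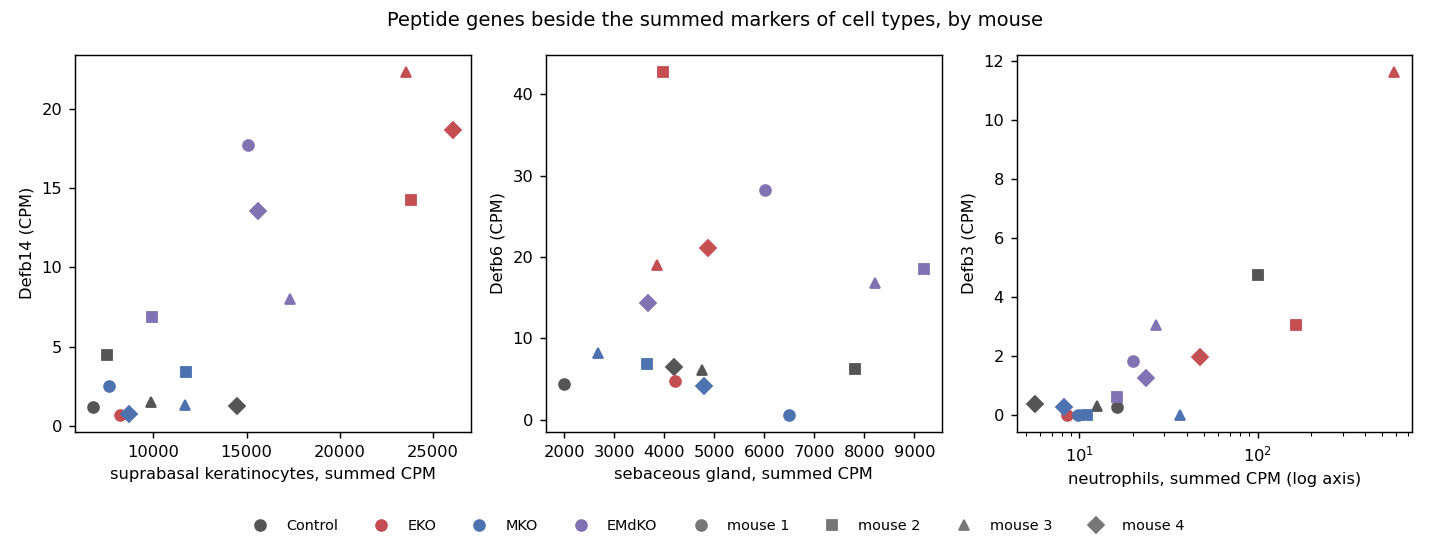
Level of Defb14, Defb6 and Defb3 (CPM, vertical axes) against the summed CPM of suprabasal keratinocyte, sebaceous gland and neutrophil markers (the last on a log axis) in each of the 16 mice. Color gives the group and shape the mouse number. EKO mouse 3 holds the highest neutrophil marker sum, 586, of which S100a8 and S100a9 make up 563, and the highest Defb3 level, 11.6.

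The genes most like each tested gene were found by Pearson's r of log2 CPM over the 16 libraries, among 12424 genes, as a description of libraries that share group and depth. Those nearest to Defb14 were Slurp1, which encodes a secreted peptide of differentiated keratinocytes, Il1f9, which encodes IL-36 gamma, and Abhd12b (r = 0.93, 0.92 and 0.92). Il1f9 averaged 66.5 CPM in control and 77.4 in MKO, against 234 in EKO and 217.7 in EMdKO. Nearest to Defb6 were Krt79, a keratin of the hair canal and sebaceous duct, the peroxisomal oxidase gene Acox2 and the sphingosine phosphatase gene Sgpp2 (r = 0.96, 0.95 and 0.93). No gene was shared between the lists of Defb14 and Defb6. For Defb3 they were the alarmin gene S100a9, the protease inhibitor gene Stfa1 and Glrx (r = 0.94, 0.92 and 0.90), with S100a9 at a mean of 106 CPM in EKO, 8.09 in EMdKO, 7.92 in control and 0.509 in MKO. For Defb1 they were Slc15a1, Yod1 and Dlg3 (r = 0.93, 0.93 and 0.91), for Slpi Cttnbp2nl, Nras and Urah (r = 0.91, 0.89 and 0.88), and for Pglyrp1 Sirpa, Ccnt1 and Akr1c18 (r = 0.84, 0.81 and 0.81).

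Among cytokines, receptors and sensors that act upstream of peptide genes, 4 of 25 tested genes rose with Krt14-Cre and 0 fell, where 0.778% of all genes were called higher and 0.147% lower. This list too was chosen with earlier results of these data known. The median log2 effect was 0.13 beside -0.02 over all genes. DESeq2 and limma-voom each called 5, the same 4 and the sensor gene Nod2, where they called 2.32% and 4.31% of all genes. The 4 were Il1f6, Il1f8 and Il1f9, which encode IL-36 alpha, beta and gamma, and Il1a, which encodes IL-1 alpha. Il1f6 rose by 5.21 ± 0.63, Il1f8 by 2.49 ± 0.36, Il1f9 by 1.65 ± 0.29 and Il1a by 1.87 ± 0.35 on the log2 scale (edgeR, BH-adjusted p = 0.00223, 0.00583, 0.0159 and 0.0204). The IL-17 and IL-22 genes Il17a and Il22 had 0 counts in all 16 libraries, and Il17f and Il17c had 1 and 2 counts in all. A count of 0 allows up to 3 counts in a library.

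Of 14 tested genes for other antimicrobial proteins 0 were called by edgeR with Krt14-Cre and 4 had an unadjusted p under 0.05, where 11% of all genes had, the median log2 effect being 0.46. The alarmin genes S100a9 and S100a8 had 3.85 ± 0.89 and 3.58 ± 1.04, and Lcn2, which encodes a siderophore-binding protein, 2.01 ± 0.61 (edgeR, BH-adjusted p = 0.0539, 0.155 and 0.181). Wfdc12, which encodes a whey acidic protein-type inhibitor, was next by p (edgeR, BH-adjusted p = 0.325). DESeq2, which called 2.32% of all genes, called S100a8 and S100a9 higher, and limma-voom, which called 4.31%, called Lcn2. In EKO, S100a9 ran from 0.826 to 316 CPM.

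Kallikreins are serine proteases of the stratum corneum that cut cathelicidin and other proteins. Of 16 tested proteases and inhibitors 0 were called by edgeR and 5 had an unadjusted p under 0.05, where 11% of all genes had, with a median log2 effect of 0.33. Klk8 had 1.13 ± 0.27, Klk14 1.67 ± 0.46, Klk6 1.99 ± 0.56 and Klk7 0.59 ± 0.20 (edgeR, BH-adjusted p = 0.0591, 0.126, 0.139 and 0.252). DESeq2 and limma-voom each called 3, Klk6, Klk8 and Klk14, where they called 2.32% and 4.31% of all genes.

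Of 9 tested receptors described for these peptides 0 were called by edgeR, DESeq2 or limma-voom, and 1, the lipopolysaccharide receptor gene Tlr4, had an unadjusted p under 0.05 (-0.35 ± 0.13; edgeR, BH-adjusted p = 0.321), a share close to the 11% of all genes. The chemokine receptor gene Ccr2 had -0.41 ± 0.22, the mast cell receptor gene Mrgprb2 -0.49 ± 0.29 and the formyl peptide receptor gene Fpr1 -0.57 ± 0.59 (edgeR, BH-adjusted p = 0.525, 0.582 and 0.795), and the median of the list was -0.29. Of 25 transcription factors of peptide genes 0 were called by edgeR or DESeq2 and 5 had an unadjusted p under 0.05, where 11% of all genes had, with a median of 0.15. Cebpa had 0.40 ± 0.12, the NF-kB subunit gene Rel 0.57 ± 0.18, Cebpb 0.42 ± 0.14 and the epidermal factor gene Grhl3 0.61 ± 0.21 (edgeR, BH-adjusted p = 0.167, 0.202, 0.26 and 0.269). Of this list limma-voom called Cebpa and Rel, where it called 4.31% of all genes. In the other 7 comparisons edgeR called 0 genes of these 5 lists, with 0 to 7 of a list at an unadjusted p under 0.05. These included, for LysM-Cre, 7 of 16 proteases and inhibitors and 6 of 14 antimicrobial proteins, where 13.1% of all genes had. In MKO against control 6 of those 14 had, where 9.58% of all genes had. In EMdKO against MKO 7 of 25 cytokines, receptors and sensors and 7 of 25 transcription factors had, where 7.42% of all genes had. Of the 9 peptide receptors 0 to 2 had. DESeq2 called Il1f6, Il1f8, Il1f9 and Il1a higher in EKO and in EMdKO against control and in EMdKO against MKO (0.433%, 0.535% and 1.08% of all genes). It also called Klk8 higher in EKO, Lyz1 and Nod2 higher in EMdKO, and in MKO Lyz1 higher and S100a7a and Klk6 lower, all against control (0.433%, 0.535% and 0.851% of all genes). For the LysM-Cre mean effect it called the lysozyme gene Lyz2, S100a8, S100a9, Klk6 and Klk8 lower and Lyz1 and Fpr1 higher (1.9% of all genes). There limma-voom called Lyz2 lower and Lyz1 higher (0.484%). Lyz2 averaged 395 CPM in control and 370 in EKO, against 218 in MKO and 230 in EMdKO. Lyz1 averaged 42.2 and 51.6 CPM, against 108 and 106. Control mice had no Cre, so an effect of the Cre allele and one of MCPIP1 loss cannot be told apart for these genes.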

How the data were processed

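RNA from snap-frozen whole skin of 16 mice was profiled by amplicon sequencing (Ion AmpliSeq mouse transcriptome panel), as the labels' protocols state. The files deposited by the authors hold raw read counts, 1 per RefSeq target. The submitters' processing notes name HTSeq 0.6.0 and DESeq2 1.18.1. Which aligner and build were used is not given in the sources used here. The 5 HTSeq summary lines, 3.111 to 5.252% of the reads of a library, were left out. Symbols came from RefSeq (22452 targets) and GENCODE vM21 (110). Library depth limits rare genes, and counting intervals cover counting error only.

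The main test was the quasi-likelihood F test of edgeR 4.0.16 (R 4.3.3) after TMM scaling and its default expression filter, with 1 mean per group over all 16 libraries and 8 comparisons. A log2 fold change has an approximate SE, its size divided by the square root of F. Log2 CPM used a prior count of 2. The 8 genes, the gene lists, the alternatives and the mean effects were chosen with earlier results of these data known. Named list genes are the 4 with the smallest p for Krt14-Cre, and the genes most alike are the 3 with the highest r at a mean log2 CPM of at least 1. Lists are counted and given with their medians, not tested as sets.

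Alternatives were DESeq2 1.42.0, limma-voom (limma 3.58.1) with sample weights, other scaling, no filter, another filter (CPM of 1 in 4 libraries, which kept more targets than the default), fits of only 2 groups, a block for mouse number and each library left out. The fits were checked on simulated data. Mouse numbers were not used as pairs, since the labels give them no shared origin. Tables and figures used python 3.11.15, pandas 2.3.3, biopython 1.88 and matplotlib 3.10.9.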

Additional observations from a re-analysis of the deposited data

Results flagged for a closer look

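In 6 of the 31 combinations of gene and group with any spread, 1 of the 4 mice lay far from the other 3 by Dixon's gap test at the 95% level. Chance flags about 1 in 20 groups of independent values with a normal spread, which low counts from the same mice need not have. Control mouse 2 was high for Defb14 (4.46 CPM, others 1.24 to 1.49), Defb3 (4.75 CPM, others 0.248 to 0.375) and Pglyrp1 (6.33 CPM, others 1.36 to 1.78). Control mouse 1 was low for Defb6 (4.46 CPM, others 6.17 to 6.50). MKO mouse 4 was the only MKO mouse with Defb3 counts (0.251 CPM, from 2 counts), so its flag follows from the zeros of the others. EKO mouse 1 was low for Camp (0.103 CPM, from 1 count, others 0.657 to 0.728). It was not flagged by this test for Defb14, Defb6, Defb3 or Defb1.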

How the results depend on the processing

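For Krt14-Cre, the 2 calls held with DESeq2, limma-voom, other scaling, no filter, the other filter and the block, and leaving out 1 library gave 0 to 3 calls. DESeq2 called 1 gene of the set in EKO and 1 in EMdKO against control, 2 in EMdKO against MKO and 1 for LysM-Cre, where edgeR called 0, and the 2 groups EMdKO and MKO alone gave 1. Leaving out 1 library gave 0 to 2 calls in EKO and 0 to 1 in EMdKO against control, and 0 to 1 in EMdKO against MKO. The causes were not tested. Values that turned direction were those near 0. EMdKO minus EKO ran from -0.67 to 0.052 for Defb14 and from -0.51 to 0.38 for Defb6 with 1 library left out, the interaction from -0.83 to 0.20 for Defb14 and from -0.32 to 0.60 for Defb6, and the Krt14-Cre effect of Pglyrp1 from -0.10 to 0.55. The Defb6 interaction was -0.11 with limma-voom and -0.0012 with upper-quartile scaling. With the mouse number as a replicate block, EMdKO minus EKO for Defb6 was 0.15, and no call among the 8 genes changed. Over all genes the block gave 103 calls for Krt14-Cre beside 126. Of 24 pairs of same-numbered mice, 7 deviated together with a correlation over 0.1 (range -0.54 to 0.61), and 5 of 16 libraries were most like one of their own number. Calls over all genes for Krt14-Cre were 316 with DESeq2, 588 with limma-voom and 40 to 356 with 1 library left out. At 6962474 to 12086327 counts, Camp, Defb4, Defb3 and Slpi rest on few counts.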
